A study of Homo sapiens with 12 samples.

Results

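METTL5 knockout cells of the HCC-LM3 line were compared with METTL5 knockout cells of the Huh-7 line, gene by gene. The 6 libraries labelled as knockouts of these lines were taken, 3 per line, of 12 in the series, and no wild-type library entered. HCC-LM3 is a human hepatocellular carcinoma line known for its metastatic capacity, and Huh-7 is a human hepatocellular carcinoma line known for secreting liver plasma proteins. In each group the genotype was METTL5-KO and the treatment was METTL5 sgRNA infection, so all 6 libraries share the targeted gene and the guide treatment and differ in the cell line. No clone, culture, batch or control guide is named in the labels. Whether the 3 libraries of a line stem from different cultures is not stated, so each p-value reflects only how far these libraries differ from one another, which may be technical variation. Total RNA was extracted with TRIzol and sequenced on an Illumina NovaSeq instrument. Because the comparison is between lines, no difference in it can be assigned to the loss of METTL5.

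METTL5 is an enzyme that methylates an adenosine (m6A) of 18S rRNA, and it needs the small protein TRMT112 as a partner to be stable. Hepatocytes secrete most plasma proteins, and the genes for these are switched on together by a group of transcription factors that includes HNF4 and FOXA factors. Liver cancer cells can keep this secretory programme, or lose it and express matrix, keratin and growth-factor genes that adult hepatocytes do not.

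The sequences below show promoter windows of 3 genes that were at or near 0 in one of the lines. The genes were chosen after their values were seen, and only among genes whose promoter holds the motif marked. The marked matches are thus a result of the choice and not a finding. Each window is the 250 bases before a RefSeq transcription start on GRCh38.p14. SERPINA1 encodes alpha-1-antitrypsin and F2 encodes prothrombin, both made by hepatocytes and both at or near 0 in knockout HCC-LM3. The capitals in these windows mark GTTAAT, a run of letters known from liver promoters, or its reverse complement. TMEM106A encodes a transmembrane protein and belongs to a run of 3 silent genes on chromosome 17 (such runs are defined below). Each of the 3 overlaps another of them, so they are not separate neighbours and reads may be shared. It read 2.58, 2.20 and 2.19 CPM (defined below) in knockout HCC-LM3 and 0 counts in every knockout Huh-7 library, at least 8.38-fold lower, and the capitals in its window mark a match to the AP-1 site TGANTCA. SERPINA1 lies at chr14:94388603-94388852 on the minus strand, F2 at chr11:46718963-46719212 on the plus strand, and TMEM106A at chr17:43211625-43211874 on the plus strand.
SERPINA1: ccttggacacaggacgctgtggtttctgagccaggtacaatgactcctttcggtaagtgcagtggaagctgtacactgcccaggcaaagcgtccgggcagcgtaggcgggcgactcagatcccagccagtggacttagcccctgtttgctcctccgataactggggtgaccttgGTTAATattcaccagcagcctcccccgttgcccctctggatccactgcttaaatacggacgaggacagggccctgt
F2: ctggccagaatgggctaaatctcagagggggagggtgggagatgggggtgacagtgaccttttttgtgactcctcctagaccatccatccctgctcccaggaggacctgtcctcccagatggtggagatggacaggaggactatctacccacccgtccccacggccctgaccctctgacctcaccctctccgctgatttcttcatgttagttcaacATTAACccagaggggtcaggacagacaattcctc
TMEM106A: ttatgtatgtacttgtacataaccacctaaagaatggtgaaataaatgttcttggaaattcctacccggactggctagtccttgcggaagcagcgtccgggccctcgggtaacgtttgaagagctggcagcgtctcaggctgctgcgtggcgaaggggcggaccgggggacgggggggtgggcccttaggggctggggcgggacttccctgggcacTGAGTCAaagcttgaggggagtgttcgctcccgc

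The match begins 76 bases before the start in SERPINA1 and 34 bases before it in F2. Motifs were searched on both strands, separately, so a promoter can hold more than 1 of them, in RefSeq windows from 250 bases before to 50 bases after each start. GTTAAT was found in 23.5% of 51 promoters of 38 plasma protein, apolipoprotein and coagulation genes that were higher in knockout Huh-7. It was found in 4.24% of the promoters of all tested genes and in 6.88% of all 35116 promoters. For all genes called higher by at least 3 on the log2 scale, the share was 5.87% in knockout Huh-7 and 4.43% in knockout HCC-LM3. The liver lists thus differed from the genes higher in knockout Huh-7 at large. TATAAA, the TATA box, was found in 17.6% of the same 51 promoters, 6.4% of those of tested genes and 11.5% of all. In the genes higher by at least 3 it was found in 8.76% (knockout Huh-7) and 7.38% (knockout HCC-LM3). TGANTCA was found in 6.18% of the promoters of genes called higher in knockout HCC-LM3 by at least 3 on the log2 scale, in 5.09% of those higher in knockout Huh-7 by as much, in 5.25% of those of tested genes and in 7.71% of all. A match is a run of letters and not a measured binding site.

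Summed counts per library ran from 17495275 to 26415496. Levels are given as CPM, counts scaled to a common library total after adjusting that total by TMM, a factor that sets the typical gene level between libraries. The TMM factors were 1.69 to 1.73 in knockout HCC-LM3 and 0.575 to 0.594 in knockout Huh-7. The knockout Huh-7 libraries held fewer genes at depth, with 5663 to 6092 genes at 100 counts or more against 10385 to 10647. They held more of their counts in a few genes. The 50 most counted genes took 37.2% to 37.6% of each, against 20.7% to 21% in knockout HCC-LM3. FTL, the ferritin light chain that stores iron, took 5.75% to 5.88% of the counts in knockout Huh-7 and 0.229% to 0.232% in knockout HCC-LM3. The mean length of the counted genes, weighted by counts, was 1698 to 1725 bases in knockout Huh-7 and 3111 to 3198 bases in knockout HCC-LM3. Library composition and cell line cannot be told apart here.

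Of 15028 genes tested with edgeR's quasi-likelihood test, 13615 (90.6%) differed at a Benjamini-Hochberg adjusted p under 0.05. Higher levels in knockout HCC-LM3 were called for 7765 genes (51.7% of those tested) and higher levels in knockout Huh-7 for 5850 (38.9%). The values of the lines did not overlap in 91.2% of the tested genes. A difference of at least 1 on the log2 scale was called for 6632 genes higher in knockout HCC-LM3 (44.1%) and 4763 higher in knockout Huh-7 (31.7%). With library totals in place of TMM, the calls split into 75% higher in knockout HCC-LM3 and 25% higher in knockout Huh-7, where TMM gave 57.0% and 43.0%. The median log2 difference of all tested genes, knockout HCC-LM3 minus knockout Huh-7 throughout, was 0.60 with TMM, 0.23 with DESeq2-type size factors, 2.15 with library totals and 0.08 with offsets that correct for GC content and for gene length. Since most genes were called, a count of members of a gene group is read below against 51.7% and 38.9%, and its median against 0.60. Under another scaling both are read against that scaling's own calls and median. Library totals called 10603 of 15028 genes higher in knockout HCC-LM3 and 3527 in knockout Huh-7. The offsets called 6468 and 6107. Each gene given with a log2 difference kept its sign under every other scaling, filter and test that was run, and each group median kept its sign under the 3 other scalings, except where stated.

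The libraries labelled Huh-7 carried hepatocyte markers and those labelled HCC-LM3 did not. The summed level of 10 hepatocyte markers was 25750 to 26450 CPM in knockout Huh-7 and 0.662 to 0.806 CPM in knockout HCC-LM3. In each knockout HCC-LM3 library 5 of the 10 were at 0 counts, among them ALB, the main protein of blood plasma, and APOB. The 7 cholangiocyte markers summed to 251 to 281 CPM in knockout HCC-LM3, most of it KRT7, and to 1426 to 1504 CPM in knockout Huh-7, most of it KRT19. Markers of other cell types were low in both: the 8 of fibroblasts summed to 26.5 to 28.96 CPM against 7.74 to 9.32 CPM, and the 7 of endothelium to 2.58 to 2.82 CPM against 4.88 to 5.38 CPM. The 7 leukocyte markers summed to 39.8 to 43.2 CPM in knockout HCC-LM3 and 90.4 to 97.2 CPM in knockout Huh-7. Most of that sum was CD68, a lysosomal membrane protein, at 41.6 ± 1.93 CPM and 75.98 ± 2.69 CPM (SD, n = 3 each), and the leukocyte antigen PTPRC and the macrophage receptor CD163 had 0 counts in all 6 libraries. In bulk RNA, fewer cells of a type and less RNA per cell cannot be told apart.

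METTL5 had 0 counts in all 6 libraries and could not be tested. Whether this reflects lost RNA or the deposited row itself was not tested. The check of TPM against count and length (below) needs counts, so it could not judge the METTL5 row. A count of 0 allows up to 3 counts per library, which is 0.0713 CPM in knockout HCC-LM3 and 0.277 CPM in knockout Huh-7. TRMT112, its partner protein, was present in both lines. It stood at 81.7, 86.3 and 94.2 CPM in knockout HCC-LM3 and at 871, 865 and 808 CPM in knockout Huh-7, with no overlap. The log2 difference was -3.28 ± 0.06 (SE, adjusted p = 1.53e-26, edgeR), or -1.36 with the offsets for GC content and length. TRMT112 overlaps ESRRA on the other strand, so part of its reads may belong to that gene. Among 30 tested genes of the m6A and rRNA methylation machinery, 20 were higher in knockout HCC-LM3 and 8 in knockout Huh-7, with a median of 0.95. With the offsets these counts were 14 and 12 and the median 0.13. NAT10, which acetylates cytidines of rRNA, stood at 79.9 ± 2.41 CPM against 8.3 ± 1.06 CPM (SD, n = 3 each), a log2 difference of 3.27. METTL16, an m6A writer for U6 RNA, stood at 23.7 ± 1.24 CPM against 2.66 ± 0.67 CPM.

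Genes of plasma proteins, apolipoproteins and clotting factors were high in knockout Huh-7 and mostly at or near 0 in knockout HCC-LM3, whereas complement genes, which hepatocytes also secrete, were split. All 21 tested plasma protein genes were higher in knockout Huh-7, with a median log2 difference of -11.73. Of the 21, 9 were at 0 counts in every knockout HCC-LM3 library, and with those genes set to the bound that 3 counts allow, the median was -11.19. SERPINA1 read 7859, 7858 and 7771 CPM in the knockout Huh-7 libraries and 0.0224, 0.0794 and 0.0448 CPM in those of knockout HCC-LM3, which is 255724 counts against 6. Its log2 difference was -17.20 (adjusted p = 2.33e-35, edgeR), and the ratio was 165800 (95% counting interval 76180 to 451800). TTR, the carrier of thyroid hormone and retinol, read 1969, 1963 and 1867 CPM in knockout Huh-7 and 0 counts in knockout HCC-LM3, at least 27120-fold lower. ORM1, an acute-phase glycoprotein, was at 617 ± 16.9 CPM (SD, n = 3) and at 0, at least 8658-fold lower.

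Lipoprotein and clotting genes followed the same direction. Of 18 tested apolipoprotein and lipoprotein assembly genes, 15 were higher in knockout Huh-7 and 3 in knockout HCC-LM3, with a median of -11.19, or -9.05 with the 6 genes at 0 set to their bounds. APOA2, a protein of high-density lipoprotein, read 3527, 3577 and 3405 CPM in knockout Huh-7 and had 0 counts in knockout HCC-LM3, at least 49150-fold lower. APOA1, the main protein of the same particle, had 189419 counts in knockout Huh-7 and 3 in knockout HCC-LM3, a ratio of 245600 (95% counting interval 84050 to 1191000). Of 15 coagulation genes 14 were higher in knockout Huh-7, with a median of -9.38. F2 stood at 302 ± 2.51 CPM in knockout Huh-7 and 0.0801 ± 0.05 CPM in knockout HCC-LM3, a log2 difference of -11.82.

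Complement, the plasma cascade that marks microbes and cells for removal, held genes on both sides. Of 16 tested genes 8 were higher in knockout HCC-LM3 and 7 in knockout Huh-7, with a median of 0.27 that turned to -0.11 with DESeq2-type size factors and to -0.41 with the offsets. C1R, a protease of the complex that starts the classical route, read 209, 201 and 204 CPM in knockout HCC-LM3 and 4.41, 5.77 and 4.63 CPM in knockout Huh-7 (log2 difference 5.38 ± 0.09). CD55, a membrane protein that shields cells from complement, stood at 260.2 ± 8.23 CPM against 0.612 ± 0.122 CPM (8.72). SERPING1, the plasma inhibitor of that complex, went the other way at 0.134, 0.318 and 0.112 CPM in knockout HCC-LM3 and 220.8, 229 and 228 CPM in knockout Huh-7 (-10.25). MASP1, a protease of the lectin route, stood at 0.449 ± 0.142 CPM against 77.5 ± 4.02 CPM (-7.44). C3, the central component, was present in both, at 288 ± 22.1 CPM in knockout HCC-LM3 and 133.6 ± 5.80 CPM in knockout Huh-7.

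**Figure D1:**
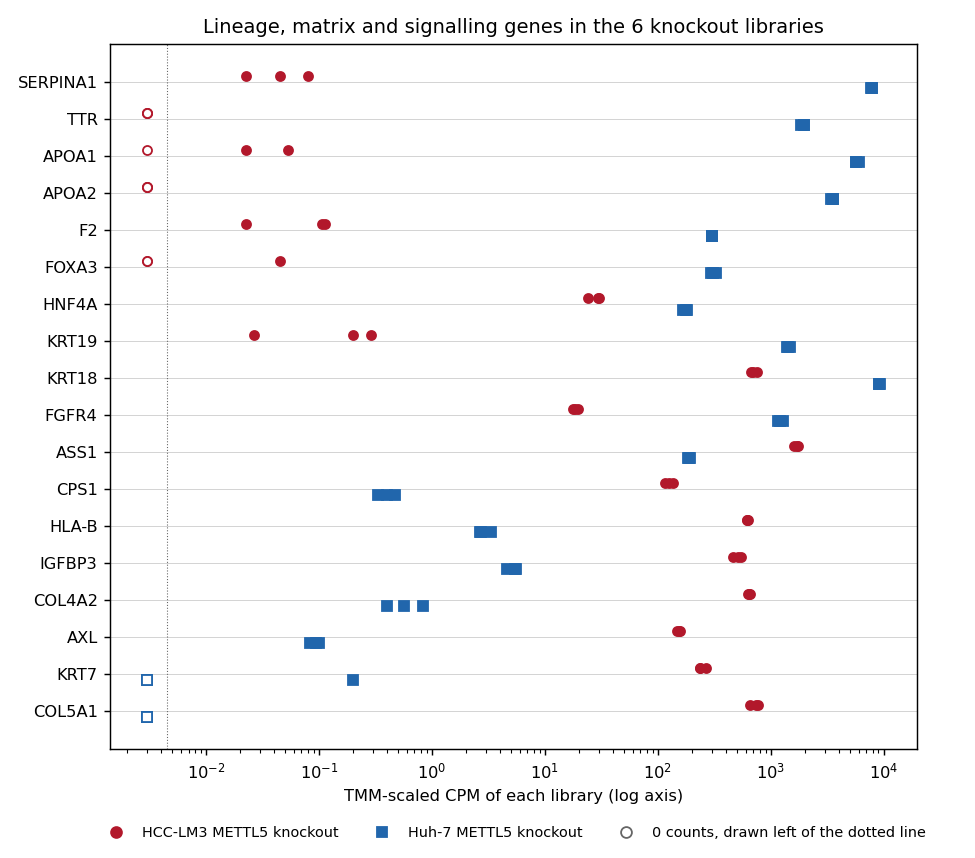
CPM of each library on a log axis for 18 genes of lineage, matrix and signalling (circles, knockout HCC-LM3; squares, knockout Huh-7; open symbols, libraries at 0 counts). Plasma protein and clotting genes sit at 302 to 7830 CPM on average in knockout Huh-7 and at or below 0.0801 CPM in knockout HCC-LM3, while KRT7, AXL, COL4A2 and COL5A1 show the reverse.

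The transcription factors of the hepatocyte did not move as a block. Of 22 tested, 16 were higher in knockout Huh-7 and 5 in knockout HCC-LM3, with a median of -2.80. With library totals these counts were 12 and 8 and the median -1.26. FOXA3 stood at 310 ± 15.5 CPM in knockout Huh-7 and had 2 counts in all of knockout HCC-LM3, a ratio of 19660 (95% counting interval 5442 to 162400). FOXA2, at 36.1 ± 7.98 CPM in knockout Huh-7, had 0 counts in knockout HCC-LM3, at least 506-fold lower. Both were thus near absent from knockout HCC-LM3.

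HNF4A was present in both lines. It read 29.4, 30.04 and 23.9 CPM in knockout HCC-LM3 and 178, 169 and 180 CPM in knockout Huh-7, a log2 difference of -2.67 ± 0.07. In TPM, which divides by gene length and holds no TMM scaling, it was listed at 14.8 ± 2.41 and 13.1 ± 0.66 (SD, n = 3 each).

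Liver metabolism differed by pathway and within pathways. Among bile acid genes 9 of 13 were higher in knockout Huh-7 and 2 in knockout HCC-LM3, with a median of -3.15. CYP27A1, which starts the acidic route of bile acid synthesis, read 352, 364 and 345 CPM in knockout Huh-7 and 0.0672, 0.106 and 0.0672 CPM in knockout HCC-LM3 (log2 difference -12.05). FGFR4, the receptor through which bile acid synthesis is held down, stood at 1214 ± 61.1 CPM against 18.7 ± 1.12 CPM. Its ligand FGF19 was at 29.4 ± 5.04 CPM in knockout Huh-7 and at 0 counts in knockout HCC-LM3, at least 413-fold lower. Of 21 genes of xenobiotic enzymes 15 were higher in knockout Huh-7 and 5 in knockout HCC-LM3, with a median of -3.64. CES1, a liver carboxylesterase, had 3257 counts in knockout Huh-7 and 1 in knockout HCC-LM3, a ratio of 12670 (95% counting interval 2273 to 500600).

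Most urea cycle and amino acid genes were higher in knockout Huh-7, and 2 urea cycle enzymes, CPS1 and ASS1, were higher in knockout HCC-LM3. Among 21 urea cycle and amino acid genes 14 were higher in knockout Huh-7 and 6 in knockout HCC-LM3, with a median of -3.72. CPS1, the mitochondrial enzyme that starts the cycle, read 136, 125 and 116 CPM in knockout HCC-LM3 and 0.333, 0.398 and 0.472 CPM in knockout Huh-7 (log2 difference 8.29, adjusted p = 1.37e-26, edgeR). ASS1, which joins citrulline and aspartate, read 1600, 1734 and 1724 CPM against 190, 193 and 184 CPM (3.16 ± 0.05). HGD, of tyrosine breakdown, stood at 1.19 ± 0.179 CPM in knockout HCC-LM3 and 233 ± 15.1 CPM in knockout Huh-7 (-7.60 ± 0.09).

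Sterol synthesis was split. Of 23 genes 14 were higher in knockout Huh-7 and 6 in knockout HCC-LM3, with a median of -0.82 that turned to 0.73 with library totals, where the counts were 7 and 15. The median of all genes was then 2.15. Taken minus that of all genes, the sterol median was -1.42 with either scaling. DHCR7, the last step to cholesterol, stood at 69.2 ± 7.96 CPM in knockout HCC-LM3 and 1388 ± 32.7 CPM in knockout Huh-7 (-4.33). MVD, of the mevalonate steps, stood at 32.7 ± 2.19 CPM against 756 ± 42.6 CPM (-4.53). SQLE, which oxidises squalene, ran the other way at 46.5 ± 2.32 CPM against 4.86 ± 0.889 CPM (3.27).

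Metal and redox genes were mostly lower in knockout HCC-LM3. Of 8 tested metallothioneins, small proteins that bind zinc and copper, 7 were higher in knockout Huh-7, and 4 had 0 counts in every knockout HCC-LM3 library. The median was -5.19, or -3.24 with those 4 at their bounds, and with the offsets for GC content and length 4 were higher in knockout Huh-7 and 3 in knockout HCC-LM3. MT1F read 120, 124 and 116 CPM in knockout Huh-7 and 0 counts in knockout HCC-LM3, at least 1684-fold lower. Of 32 NRF2 targets and peroxidases 22 were higher in knockout Huh-7 and 10 in knockout HCC-LM3, with a median of -1.88, or -0.34 and counts of 16 and 14 with library totals.

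Members of the aldo-keto reductase family went opposite ways. AKR1C1 read 1101, 1004 and 1082 CPM in knockout Huh-7 and 0.157, 0.132 and 0.112 CPM in knockout HCC-LM3 (-12.91). AKR1C3 read 3.58, 2.29 and 2.55 CPM in knockout Huh-7 and 45.6, 45.1 and 45.7 CPM in knockout HCC-LM3 (3.997 ± 0.12). These genes are close paralogs and how shared reads were divided is not known. GPX3, a secreted glutathione peroxidase, stood at 818 ± 24.8 CPM in knockout Huh-7 and 0.0964 ± 0.0331 CPM in knockout HCC-LM3 (-13.01). FTL averaged 99710 ± 2717 CPM against 1346 ± 22.3 CPM (-6.21), the highest level per length of any protein-coding gene in knockout Huh-7, at 57750 TPM.

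Keratins and matrix genes gave knockout HCC-LM3 its own pattern. KRT7, a keratin of bile duct and other simple epithelia, read 237, 238 and 267 CPM in knockout HCC-LM3 and 0, 0.199 and 0 CPM in knockout Huh-7, which is 31489 counts against 2 and a ratio of 4047 (95% counting interval 1120 to 33420). KRT19, the other bile duct keratin, read 1434, 1485 and 1408 CPM in knockout Huh-7 and 0.202, 0.0265 and 0.291 CPM in knockout HCC-LM3 (-12.92, adjusted p = 1.18e-28, edgeR). Each line thus held the keratin the other lacked. KRT8 and KRT18, the keratin pair of hepatocytes, were abundant in both, at 1655 ± 44.7 and 708 ± 43.8 CPM in knockout HCC-LM3 and 21750 ± 740 and 9146 ± 115 CPM in knockout Huh-7 (-3.72 and -3.69). KRT8 and KRT18 overlap each other on opposite strands. Over 29 epithelial genes 12 were higher in knockout HCC-LM3 and 14 in knockout Huh-7, with a median of -0.24 that turned to 1.31 with library totals. That of all genes was then 2.15.

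Collagen and laminin genes were higher in knockout HCC-LM3 for 21 of 27 members and in knockout Huh-7 for 5, with a median of 2.63. COL5A1, a chain of fibrillar collagen, read 767, 744 and 660 CPM in knockout HCC-LM3 and had 0 counts in every knockout Huh-7 library, at least 2611-fold lower. COL4A2, a chain of basement membrane collagen, read 638, 650 and 631 CPM against 0.832, 0.398 and 0.566 CPM (10.02). COL4A2 overlaps COL4A1 on the other strand, so reads may be shared. LAMA1, a laminin chain, was at 35.1 ± 1.42 CPM and at 0, at least 127-fold lower in knockout Huh-7. Not all chains went this way. COL5A2, which assembles with COL5A1, stood at 0.183 ± 0.0276 CPM in knockout HCC-LM3 and 21.7 ± 2.16 CPM in knockout Huh-7 (-6.87), so the chains of this collagen were split between the lines.

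Mesenchymal genes were higher in knockout HCC-LM3 for 19 of 30 and in knockout Huh-7 for 10, with a median of 1.54. AXL, a receptor tyrosine kinase of mesenchymal cells, read 158, 148 and 154 CPM in knockout HCC-LM3 and had 3 counts in all of knockout Huh-7, a ratio of 1670 (95% counting interval 572 to 8100). Its ligand GAS6 was at 20 ± 0.0915 CPM in knockout HCC-LM3 and at 0 counts in knockout Huh-7, at least 72-fold lower. FN1, fibronectin, which hepatocytes also secrete, went against the list, at 0.65, 0.582 and 0.739 CPM in knockout HCC-LM3 and 110, 101 and 119 CPM in knockout Huh-7 (-7.37). Among integrin genes 13 of 17 were higher in knockout HCC-LM3 and 3 in knockout Huh-7, with a median of 1.94. With the offsets for GC content and length these counts were 8 and 6 and the median 0.56. ITGA3, a laminin receptor chain, stood at 167 ± 4.09 CPM against 4.83 ± 0.348 CPM (5.11).

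Genes of matrix turnover and of the YAP and TEAD pathway leaned the same way. Of 19 urokinase system and matrix protease genes 13 were higher in knockout HCC-LM3 and 6 in knockout Huh-7, with a median of 1.41. LOXL2, which cross-links collagen, stood at 396 ± 19.5 CPM against 3.32 ± 0.835 CPM (6.91). TIMP1, an inhibitor of matrix metalloproteinases, stood at 222 ± 7.88 CPM against 8.26 ± 1.46 CPM (4.75). MMP14, a membrane-bound metalloproteinase, went the other way at 0.162 ± 0.0673 CPM against 45 ± 2.38 CPM (-8.11). Of 20 YAP and TEAD genes 14 were higher in knockout HCC-LM3 and 5 in knockout Huh-7, with a median of 2.39. TEAD1, the DNA-binding partner of YAP, stood at 47.3 ± 5.32 CPM against 1.26 ± 0.222 CPM (5.23), whereas CCN2, a widely used target of the pathway, stood at 10.5 ± 0.0663 CPM against 110 ± 3.61 CPM (-3.38).

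Growth-factor axes differed in their members. In the insulin-like growth factor axis 10 of 13 tested genes were higher in knockout HCC-LM3 and 3 in knockout Huh-7, with a median of 3.01. IGFBP3, the main carrier of these factors in blood, read 540, 517 and 460 CPM in knockout HCC-LM3 and 4.66, 5.47 and 5.57 CPM in knockout Huh-7 (6.6 ± 0.09, adjusted p = 2.68e-28, edgeR). IRS2, an adaptor of the insulin receptor, stood at 45.7 ± 0.23 CPM against 0.37 ± 0.253 CPM (6.94). IGFBP1, a binding protein that the liver secretes, had 3991 counts against 2, a ratio of 513 (95% counting interval 142 to 4237). The growth factor gene IGF2 went the other way, with 1 count in knockout HCC-LM3 and 1853 in knockout Huh-7, and the INS-IGF2 readthrough gene that overlaps it had 0 and 28186. Reads of these overlapping genes cannot be assigned with certainty. For receptor tyrosine kinases and ligands, 10 of 21 genes were higher in knockout HCC-LM3 and 7 in knockout Huh-7, with a median of 0.21 that turned to -0.17 with DESeq2-type size factors.

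BMP and SMAD target genes were mostly higher in knockout Huh-7, 11 of 15 against 3, with a median of -2.46. With library totals these counts were 8 and 7 and the median -0.91. ID1, an inhibitor of differentiation factors and a direct SMAD target, read 24.6, 24.7 and 28.2 CPM in knockout HCC-LM3 and 2308, 2440 and 2239 CPM in knockout Huh-7 (-6.49 ± 0.07). ID3, of the same family, read 48.1, 53.2 and 56.9 CPM against 1141, 1229 and 1168 CPM (-4.48 ± 0.06). INHBB, a subunit of the ligand activin B, stood at 33.8 ± 0.983 CPM against 1.09 ± 0.354 CPM (4.97). The values of the lines overlapped for none of these 3 genes.

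Hypoxia targets were higher in knockout HCC-LM3 almost without exception. Of 20 tested, 19 were higher in knockout HCC-LM3 and 1 in knockout Huh-7, with a median of 3.08. With the offsets these counts were 17 and 2 and the median 2.68. MXI1, a MYC antagonist, read 50.5, 52.9 and 46.01 CPM in knockout HCC-LM3 and 1.25, 0.796 and 0.566 CPM in knockout Huh-7 (5.80). P4HA1, which hydroxylates collagen, stood at 51 ± 1.81 CPM against 1.66 ± 0.581 CPM (4.94), and BNIP3L, of mitophagy, at 42.9 ± 3.76 CPM against 1.54 ± 0.871 CPM (4.75). ANGPTL4, an inhibitor of lipoprotein lipase, was the exception with TMM, at 2.05 ± 0.106 CPM against 6.84 ± 1.1 CPM (-1.74). Its difference was -0.19 with library totals and -0.03 with the offsets, neither of them called. The labels give no oxygen level or cell density.

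Genes of antigen presentation were higher in knockout HCC-LM3 for 13 of 15 members and in knockout Huh-7 for 1, with a median of 3.05. HLA-B, a heavy chain of MHC class I, read 622, 626 and 622 CPM in knockout HCC-LM3 and 2.75, 2.69 and 3.30 CPM in knockout Huh-7 (7.74 ± 0.08, adjusted p = 5.97e-31, edgeR). HLA-B is near-identical to other class I genes, so its reads are uncertain between them. NLRC5, the transcriptional activator of class I genes, stood at 97.8 ± 2.64 CPM against 0.92 ± 0.0729 CPM (6.73). TAPBP, which loads peptides onto class I, stood at 84.7 ± 1.68 CPM against 0.771 ± 0.583 CPM (6.72). Of 23 interferon-stimulated genes 17 were higher in knockout HCC-LM3 and 4 in knockout Huh-7, with a median of 1.17. BST2, which tethers viruses to the cell surface, stood at 194 ± 10.5 CPM against 0.218 ± 0.0707 CPM (9.79), while MX2 stood at 0.116 ± 0.0389 CPM against 12.9 ± 1.43 CPM (-6.72).

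Fetal and germ-cell genes divided between the lines. Of 21 oncofetal and stem-like liver genes 9 were higher in knockout HCC-LM3 and 10 in knockout Huh-7, near the shares over all genes. The median was -0.24 and turned to 1.31 with library totals, where that of all genes was 2.15. AFP, the fetal counterpart of albumin, had 18572 counts in knockout Huh-7 and 3 in knockout HCC-LM3, a ratio of 24080 (95% counting interval 8240 to 116800). GPC3, a fetal proteoglycan, read 138, 136 and 154 CPM in knockout Huh-7 and 0 counts in knockout HCC-LM3, at least 2003-fold lower. H19, an imprinted long noncoding RNA, was the reverse at 90.9 ± 5.0 CPM in knockout HCC-LM3 and 0.88 ± 0.366 CPM in knockout Huh-7 (6.67). CD44, a hyaluronan receptor, stood at 210 ± 8.51 CPM against 4.73 ± 0.998 CPM (5.46). Of 25 cancer-testis antigens 8 were tested, 7 higher in knockout HCC-LM3 and 1 in knockout Huh-7. MAGEA1 was at 25.2 ± 1.1 CPM in knockout HCC-LM3 and 0 in knockout Huh-7, at least 90.8-fold lower there, and MAGEB2 at 0 and 25.3 ± 1.86 CPM, at least 354-fold lower in knockout HCC-LM3. The HOX genes, which set position along the body axis, were higher in knockout HCC-LM3 for 16 of 24 and in knockout Huh-7 for 5, with a median of 2.19.

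Genes found in a single line were counted apart from the test. At least 100 counts in every library of one line and 0 in every library of the other were found for 245 genes in knockout HCC-LM3 and 124 in knockout Huh-7. These are 2.39% of the 10240 genes with at least 100 counts in every knockout HCC-LM3 library and 2.23% of the 5570 with as many in every knockout Huh-7 library; the shares were close. Of the tested genes, 405 had 0 counts in all knockout HCC-LM3 libraries and 644 in all knockout Huh-7 libraries. BACE2, a membrane protease, read 343, 329 and 331 CPM in knockout HCC-LM3 and 0 counts in knockout Huh-7, at least 1207-fold lower. PXDN, a peroxidase of basement membranes, was at 312 ± 13.4 CPM and 0, at least 1124-fold lower, and MUC1, a mucin, at 93.3 ± 6.24 CPM and 0, at least 337-fold lower. ASGR2, a subunit of the hepatocyte receptor for desialylated glycoproteins, read 1143, 1186 and 1127 CPM in knockout Huh-7 and 0 counts in knockout HCC-LM3, at least 16160-fold lower. UCHL1, a ubiquitin hydrolase of neurons and many cancers, had 29332 counts in knockout Huh-7 and 1 in knockout HCC-LM3.

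Some of these genes follow one another along a chromosome when genes with few counts are skipped. Runs of at least 3 neighbouring genes that were at 0 in every library of one line and at 30 counts or more in every library of the other were found 15 times, 3 of them silent in knockout HCC-LM3 and 12 in knockout Huh-7. Neighbours were taken among genes with at least 30 counts in every library of a line, so other genes may lie between them. The run of BRWD3, SH3BGRL and APOOL on chromosome X, silent in knockout Huh-7, spans 80670854 to 85093316. The genes that could form such runs numbered 251 silent in knockout HCC-LM3 (3.1% of 8097 at 30 counts or more in every knockout Huh-7 library) and 447 silent in knockout Huh-7 (3.63% of 12312 at that depth in knockout HCC-LM3). In 7 of the 15 runs members overlap one another in the genome, so they are not separate neighbours and reads may be shared. On chromosome 13, PDX1, CDX2 and URAD (GRCh38, 27920020 to 27988654) were silent in knockout HCC-LM3. CDX2, a transcription factor of the intestine, was at 149 ± 2.75 CPM in knockout Huh-7, at least 2096-fold higher. MT1M, MT1A and MT1F on chromosome 16 (56632233 to 56660698) and APOC2 with APOC1P1 and the overlapping readthrough gene APOC4-APOC2 on chromosome 19 (44926804 to 44949565) were silent in the same line. On chromosome 20 a run of 5 genes that includes CCN5, KCNK15 and RIMS4 (44656451 to 44810338) was silent in knockout Huh-7, and each of its members overlaps another member. CCN5, a secreted protein of the CCN family, was at 161 ± 9.28 CPM in knockout HCC-LM3, at least 582-fold higher. A lost gene copy and a silent promoter cannot be told apart in these counts.

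By chromosome, with TMM scaling the median log2 difference was highest on chromosome X at 1.88, followed by chromosome 8 at 1.62 and chromosome 13 at 1.61, and lowest on chromosome 19 at -0.99 and chromosome 22 at -0.86, against 0.60 over all genes. When only genes averaging 10 CPM or more were kept, the highest medians were those of chromosomes 13, 8 and 5 at 1.33, 1.20 and 1.06, chromosome X was at 0.69, and chromosomes 19 and 22 were at -1.81 and -1.22, against -0.43 over all such genes. With the offsets for GC content and length chromosomes X, 8 and 13 were at 1.16, 0.83 and 0.30, the lowest medians were those of chromosomes 4 and 20 at -0.55 and -0.45, and chromosomes 22 and 19 were at -0.40 and -0.20, against 0.08 over all genes. The order of the chromosomes thus changed with the genes kept and with the offsets.

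Within gene families, TPM allowed members to be compared in the same line because it is scaled by length. Among hepatic FOXA factors, FOXA3 led in knockout Huh-7 at 65.9 ± 2.54 TPM, and FOXA1 led in knockout HCC-LM3 at 2.33 ± 0.387 TPM. Of the fatty acid binding proteins, the liver form FABP1 was above FABP5 in knockout Huh-7, at 225 ± 6.67 against 45.3 ± 2.82 TPM. In knockout HCC-LM3 FABP1 was listed at 0 and FABP5 was at 40.1 ± 2.94 TPM. Between the lines, FABP5 stood at 8.93 ± 0.878 CPM in knockout HCC-LM3 and 53.1 ± 1.91 CPM in knockout Huh-7 (log2 difference -2.57, adjusted p = 2.44e-20, edgeR), or -1.02 with library totals. HKDC1, a hexokinase domain protein, was at 78.9 ± 4.18 TPM in knockout HCC-LM3 and 0.29 ± 0.244 TPM in knockout Huh-7, a log2 difference of 6.84 in CPM. TFRC, the transferrin receptor that takes up iron, was above its hepatic paralog TFR2 in knockout HCC-LM3, at 63.0 ± 2.6 against 44.0 ± 0.548 TPM. In knockout Huh-7 the order was the reverse, at 1.40 ± 0.155 against 3.2 ± 0.141 TPM. CCND2, a D-type cyclin, was at or near 0 in both lines, and CCND1 and CCND3 were both present in both. For the cadherins, the neural CDH2 was above the epithelial CDH1 in knockout HCC-LM3, at 8.5 ± 0.647 against 0.35 ± 0.121 TPM, and level with it in knockout Huh-7, at 0.357 ± 0.0289 against 0.357 ± 0.122 TPM. Between the lines, CDH1 stood at 0.413 ± 0.0747 CPM in knockout HCC-LM3 and 2.22 ± 0.339 CPM in knockout Huh-7 (log2 difference -2.40, adjusted p = 3.06e-07, edgeR), or -0.86 with library totals. CDH2 stood at 17.5 ± 1.2 CPM against 3.76 ± 0.214 CPM (2.22), or 0.20 and no longer called with the offsets.

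**Figure D2:**
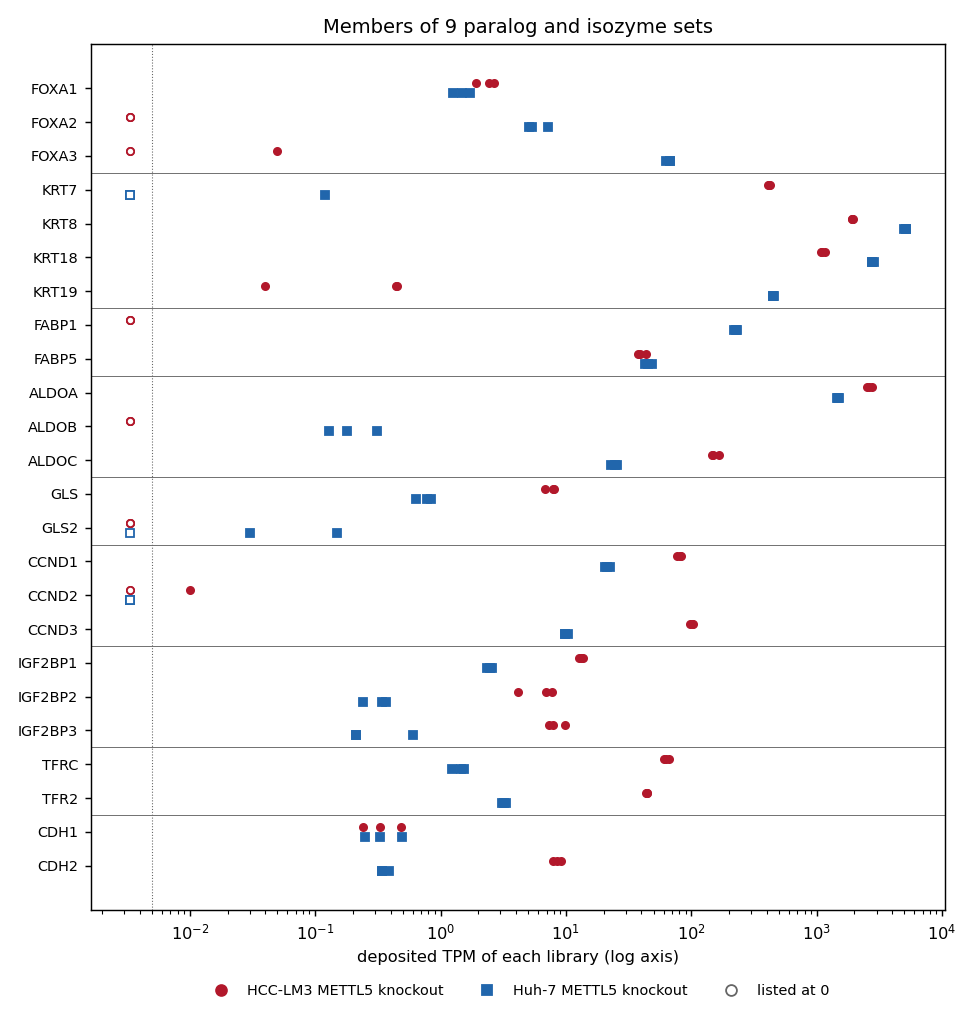
Deposited TPM of each library on a log axis for members of 9 paralog and isozyme sets (circles, knockout HCC-LM3; squares, knockout Huh-7; open symbols, values listed at 0). FOXA3 leads its set in knockout Huh-7 at 65.9 TPM and FOXA1 in knockout HCC-LM3 at 2.33 TPM, while ALDOA leads the aldolases in both lines.

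Genes of the ribosome and the respiratory chain, both made largely of small abundant proteins, were mostly higher in knockout Huh-7. Of 32 small-subunit ribosomal protein genes 30 were higher in knockout Huh-7 and 2 in knockout HCC-LM3, with a median of -2.80. Of 47 large-subunit genes 42 were higher in knockout Huh-7 and 4 in knockout HCC-LM3, with a median of -2.02. RPL37A, a protein of the large subunit, read 307, 317 and 335 CPM in knockout HCC-LM3 and 5458, 5393 and 4977 CPM in knockout Huh-7 (-4.04 ± 0.06). RPL5, which carries 5S RNA into the ribosome, was an exception at 474, 448 and 477 CPM against 149, 136 and 156 CPM (1.66 ± 0.06). Ribosomal protein genes have many processed pseudogenes, so their reads are uncertain. With the offsets for GC content and length the medians were -0.63 and -0.22, and of the large-subunit genes 24 were higher in knockout Huh-7 and 18 in knockout HCC-LM3.

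Oxidative phosphorylation genes of the nucleus were higher in knockout Huh-7 for 40 of 48 and in knockout HCC-LM3 for 6, with a median of -1.81, or -0.26 and counts of 26 and 17 with library totals. COX7A2, a small subunit of cytochrome oxidase, stood at 52.3 ± 3.2 CPM against 1134 ± 55 CPM (-4.44). SDHA, the large flavoprotein of succinate dehydrogenase, stood at 496 ± 4.0 CPM against 137 ± 3.75 CPM (1.85). All 13 mitochondrially encoded mRNAs were higher in knockout Huh-7, with a median of -2.32, and MT-ND3 among them by 4.56 on the log2 scale. With library totals 10 of the 13 were higher in knockout Huh-7 and 2 in knockout HCC-LM3. All 17 tested replication-dependent histone genes were higher in knockout Huh-7, with a median of -3.78, or -1.50 with the offsets, where 13 were higher in knockout Huh-7 and none in knockout HCC-LM3. H1-2, a linker histone, read 9.68, 8.95 and 10.2 CPM against 2127, 2162 and 1994 CPM (-7.76 ± 0.07). The transcripts of these histone genes end in a stem-loop and carry no poly(A) tail, and the labels do not say how RNA was selected.

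Genes that build and drive the ribosome went the other way from its proteins. Of 38 ribosome biogenesis genes 27 were higher in knockout HCC-LM3 and 10 in knockout Huh-7, with a median of 1.26, among them NOLC1 of the nucleolus at 119 ± 6.55 CPM against 6.07 ± 0.909 CPM (4.28). Of 40 translation factors 26 were higher in knockout HCC-LM3 and 13 in knockout Huh-7, with a median of 1.22. With the offsets the medians of these lists were 0.44 and 0.45, with 22 biogenesis genes and 25 translation factors higher in knockout HCC-LM3 and 12 and 11 in knockout Huh-7. EEF1A2, the elongation factor of neurons and muscle, stood at 1176 ± 64.9 CPM against 17.6 ± 0.318 CPM (6.06), and PABPC1, which binds poly(A) tails, at 591 ± 62.6 CPM against 29.5 ± 1.54 CPM (4.32). EIF6, which keeps large subunits apart from small ones, was the reverse at 198 ± 9.62 CPM against 2212 ± 43.1 CPM (-3.48). Proteasome genes had a median of -0.66 that turned to 0.89 with library totals, where that of all genes was 2.15. With TMM 18 of 31 were higher in knockout Huh-7, among them PSMB5, a catalytic subunit, at 89.5 ± 1.96 CPM against 1757 ± 26.6 CPM (-4.29).

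Cell division genes were higher in knockout HCC-LM3 for 26 of 36 in mitosis and 29 of 40 in DNA replication, with medians of 1.58 and 0.91. With the offsets the mitosis genes split into 17 higher in knockout HCC-LM3 and 16 in knockout Huh-7, with a median of 0.18. RRM1, the large subunit of ribonucleotide reductase, stood at 73.2 ± 3.52 CPM against 2.2 ± 0.792 CPM (5.03), whereas TK1, thymidine kinase, stood at 114 ± 6.18 CPM against 660 ± 15.1 CPM (-2.54). Of 34 genes of very large proteins 32 were higher in knockout HCC-LM3 and none in knockout Huh-7, with a median of 2.52. With the offsets this median was 0.22, with 18 higher in knockout HCC-LM3 and 10 in knockout Huh-7. PLEC, a cytoskeletal linker, read 1158, 1139 and 1184 CPM against 14.4, 12.6 and 13.2 CPM (6.43 ± 0.07), and EP300, an acetyltransferase, stood at 33.4 ± 2.94 CPM against 2.05 ± 0.0597 CPM (4.02).

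**Figure D3:**
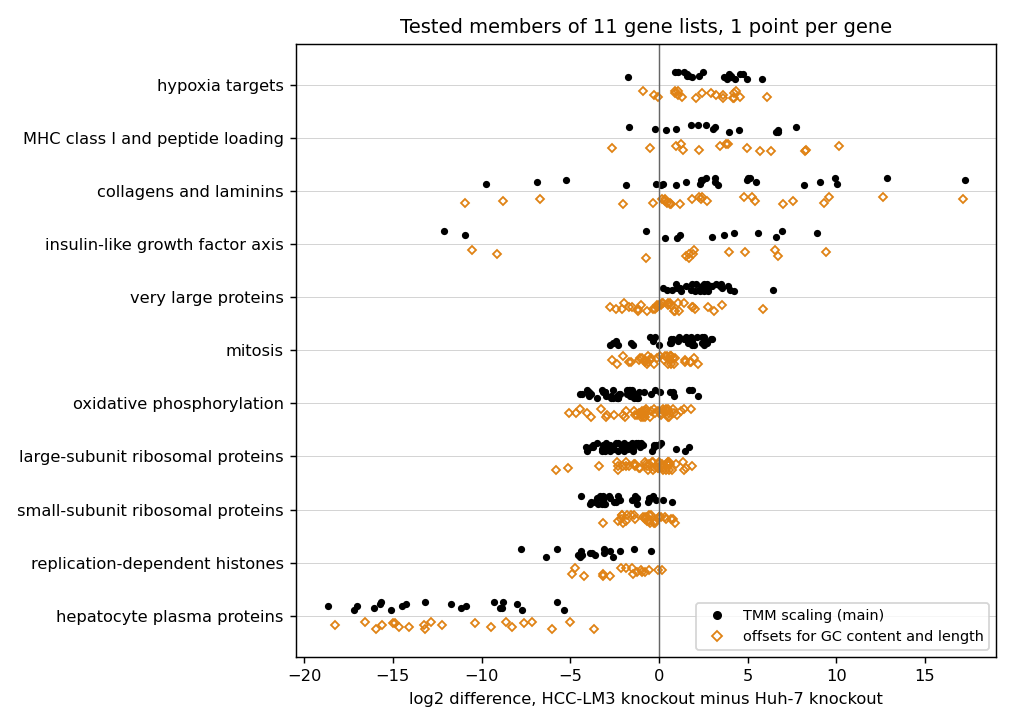
Log2 difference of each tested member of 11 gene lists, knockout HCC-LM3 minus knockout Huh-7 (filled circles, TMM scaling; open diamonds, with offsets for GC content and length; 1 point per gene). Ribosomal proteins, mitosis genes and very large proteins lie nearer 0 with the offsets, and plasma proteins stay far below 0.

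Differences moved with transcript length and GC content across all protein-coding genes. Genes of at most 600 bases had a median of -2.83 (229 genes) and genes over 8000 bases a median of 2.16 (875 genes). By GC content the median was 1.55 below 38% GC (443 genes) and -1.43 above 62% GC (1361 genes). The count-weighted GC content was 53.9% to 53.98% in knockout HCC-LM3 and 55.9% to 56.1% in knockout Huh-7. Offsets that remove both trends gave 12575 calls, 6468 of them higher in knockout HCC-LM3, and 2485 of the genes called without offsets took the opposite sign. Whether the trends come from the cells or from the libraries was not tested.

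**Figure D4:**
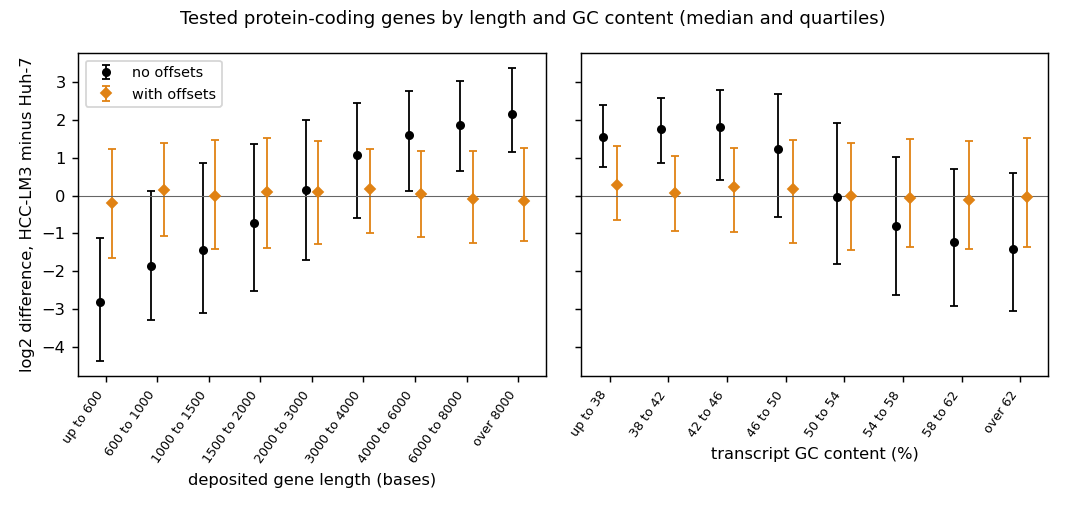
Median and quartiles of the log2 difference of tested protein-coding genes in bins of gene length in bases and of transcript GC content in percent (black circles, without offsets; orange diamonds, with offsets for both). Without offsets the medians climb with length from -2.83 to 2.16 and fall at high GC content to -1.43.

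**Figure D5:**
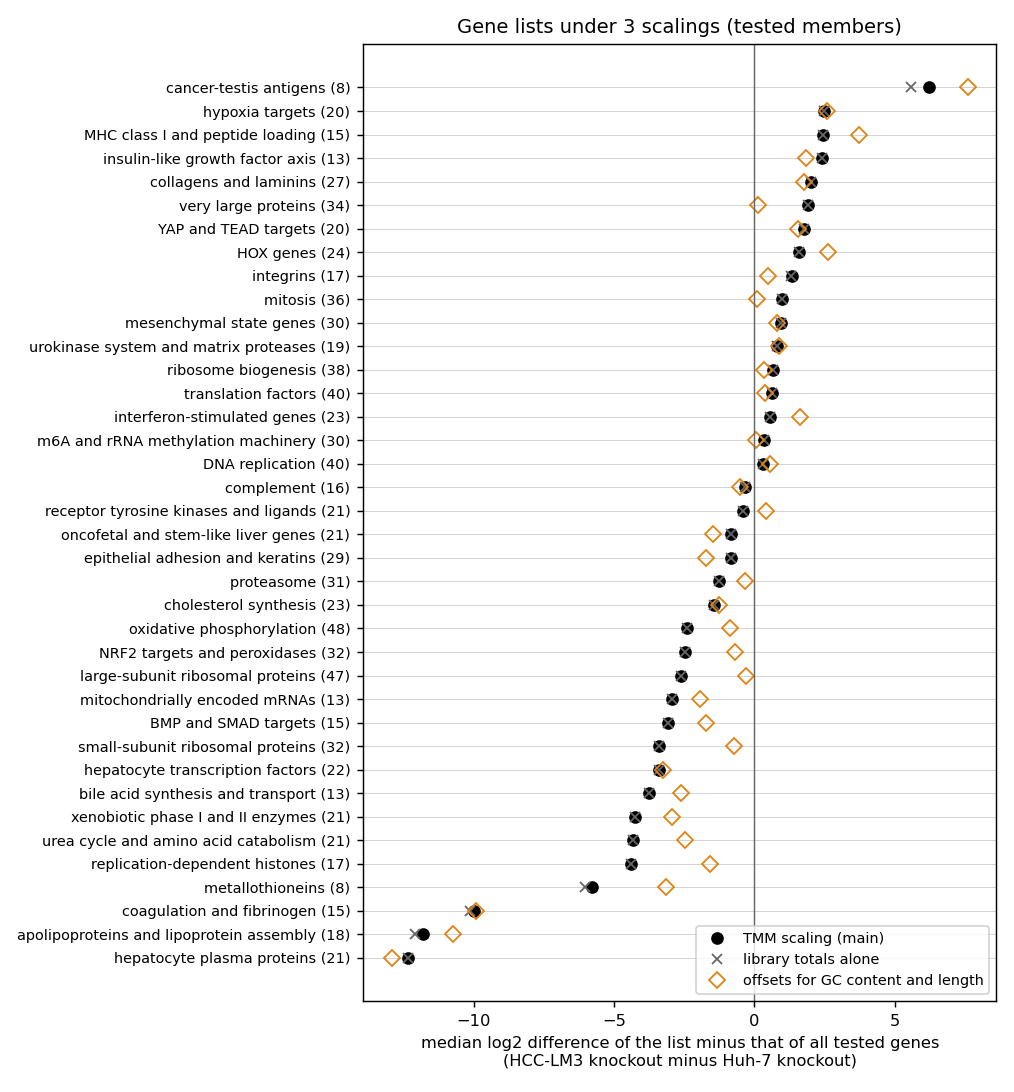
Median log2 difference of 38 gene lists minus the median of all tested genes, knockout HCC-LM3 minus knockout Huh-7, under 3 scalings (circles, TMM; crosses, library totals; open diamonds, GC and length offsets; numbers in brackets are tested members). Plasma protein, apolipoprotein and coagulation lists lie far to the left under each scaling, and ribosomal protein, histone and very large protein lists move toward 0 with the offsets.

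A small group of genes had nearly equal levels in both lines with TMM scaling. For 683 genes (4.54%) the 95% interval of the log2 difference lay within -0.5 to 0.5, and 664 of these were protein-coding. Of the 683, 374 were not called and 195 (28.6%) had a difference of at least 1 in size with the offsets. With library totals, which raised the median of all genes by 1.55, all 683 were called, at 1.15 to 1.93, so which genes are level depends on the scaling. CDK16, a cyclin-dependent kinase, is given as an example chosen after its values were seen. It read 373, 376 and 383 CPM in knockout HCC-LM3 and 370, 394 and 376 CPM in knockout Huh-7, and the interval of its log2 difference was -0.11 to 0.09. The difference of CDK16 was -0.01 with TMM, 1.54 with library totals, -0.39 with DESeq2-type size factors and 0.58 with the offsets, the last 3 of them called. IGF2BP1, a fetal RNA-binding protein, stood at 56.8 ± 1.07 CPM against 54.6 ± 0.32 CPM, with an interval of -0.07 to 0.18, but its difference was 1.60 with library totals and -1.51 with the offsets.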

How the data were processed

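RNA sequencing libraries of METTL5 knockout HCC-LM3 cells and METTL5 knockout Huh-7 cells, 3 of each, were compared. Groups came from the sample labels. Per the file headers, the authors deposited 1 table of 58884 human Ensembl genes that gives each library's expected count and TPM. The deposited expected counts are not normalized, and 7.49% to 12.0% of a library's values are not whole. The deposited TPM values, scaled by length by the authors, have library sums of 977632 to 992771 and served to compare genes within a line. The submitters' processing notes list Bowtie 0.12.2 together with mm8 and mm9, builds of the mouse genome, although the gene identifiers are human. How reads were counted, on which strand and on what human build is not given in the sources used here, so overlapping and near-identical genes are uncertain.

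Expected counts were rounded and tested in R 4.3.3 with edgeR 4.0.16 (filterByExpr, TMM, robust quasi-likelihood fit, 4 residual degrees of freedom, two-sided, Benjamini-Hochberg adjusted p under 0.05 over 15028 genes). An exact permutation test of 3 against 3 cannot go under p = 0.1. Folds against 0 counts are bounds against 3 counts per library. Ratios on 1 to 6 counts carry 95% counting intervals, which cover counting error only. Each SE of a log2 difference was derived from the test's F statistic. It is too small where a line is near 0 counts, so none is given there. The fit was first run on simulated counts in which few genes were changed. Most genes differ between these lines, so that run cannot speak to the scaling here. Types, coordinates and GC content came from GENCODE 29 on GRCh38 (99.54% of identifiers found), and promoters from RefSeq on GRCh38.p14. GC content was known for 14986 tested genes (99.7%).

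The 56 gene lists, the paralog sets, the markers and the libraries compared were chosen with earlier results of these data known. Text genes were METTL5 and TRMT112, the largest differences, up to 3 called members per list and direction at 5 CPM or more, paralog set members, the highest TPM, genes detected in a single line and silent runs. Not every gene so named is described. Protein-coding rows whose TPM was over 32 times away from what count and length give (19 rows) were left out of the lists. Replicate numbers did not pair libraries: correlations of same-numbered deviations were 0.067, -0.010 and -0.069. The alternatives were other scalings (DESeq2-type size factors, library totals), DESeq2 1.42.0, limma-voom (limma 3.58.1), no filter and a stricter filter, the replicate block, offsets for GC content and length, stricter thresholds and leaving out each library. Some genes are not reported here.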

Additional observations from a re-analysis of the deposited data

How the results depend on the processing

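The count of differing genes, 13615, ran from 12221 (offsets with the replicate block) to 16123 (no filter on low counts, 27651 genes tested) over the alternatives, and from 13746 to 13789 when each library was left out in turn. With library totals alone the genes higher in knockout Huh-7 numbered 3527, and those higher by at least 1 on the log2 scale 2663; the cause was not tested. Genes detected in a single line numbered 447 and 251 (knockout HCC-LM3, knockout Huh-7) at 30 counts or more against 0, and 483 and 207 at 100 counts or more against at most 3, since both rules admit more genes. The median of receptor tyrosine kinases and ligands, taken minus that of all genes, turned to 0.43 with the offsets and to 0.43 with the offsets and the replicate block; the cause was not tested. That of complement turned to 0.52 with a stricter filter on low counts. Taken minus that of all genes, the other 36 of the 38 list medians kept their sign under every alternative, but not their size. Of the 38, 33 moved by more than the spread between libraries with the offsets, 35 with no filter and 12 with the stricter filter. Leaving out 1 library moved between 8 (without knockout Huh-7 replicate 1) and 20 (without knockout HCC-LM3 replicate 1) by more than that spread. Of 74 single genes, 72 kept their call and sign under every alternative. CDH2 lost its call with the offsets, and ANGPTL4 lost its call with the offsets and with library totals, each also with the offsets and the replicate block. The replicate block gave 13385 differing genes, of which 13360 were among the 13615, and changed no sign. None of the 38 lists described held a row that failed the TPM check, so leaving such rows in, an alternative chosen after seeing the data, does not touch them.

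Low genes are less well measured in knockout Huh-7, where 3 counts are 0.277 CPM against 0.0713 CPM in knockout HCC-LM3. These levels follow from the library totals, on average 18630000 in knockout Huh-7 and 24790000 in knockout HCC-LM3. They follow also from the TMM factors, on average 0.585 and 1.71 in the same order. DESeq2-type size factors, library totals and the offsets shifted the median of all genes by -0.38, 1.55 and -0.52, and smaller differences can change sign with the scaling.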

Other observations

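Of the 56 gene lists, 18 are not described above, and their medians ran from -1.69 to 1.60 against 0.60 for all genes. The highest levels per length in knockout HCC-LM3 were those of MT-ATP8, FTH1 and MT-CO2, with FTH1, the ferritin heavy chain, at 16410 TPM and its light chain FTL at 4067 TPM. In knockout Huh-7 the order of the ferritin chains was the reverse, with FTL at 57750 TPM and FTH1 at 6455 TPM. The glycolytic enzyme GAPDH stood at 13910 TPM in knockout HCC-LM3 and 8798 TPM in knockout Huh-7. TPM served for comparisons within a line and holds no TMM scaling, so these GAPDH values give no direction between the lines. LDHB, a subunit of lactate dehydrogenase, was at 348 ± 5.08 CPM in knockout HCC-LM3 and had 6 counts, all in 1 library, in knockout Huh-7.

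Several rows of the deposited table hold values that do not go with their gene's length. The deposited TPM was 1970 times what count and length give for HK2, 1290 times for SLC2A1, 635 times for PKM, 510 times for ADH4 and 68.5 times for ENO1. The rows of PKM and SLC2A1 are identical in every library, and both equal the row of RNA5-8SN1, a 5.8S ribosomal RNA gene, in all 12 libraries of the series with wild type and knockout exchanged in each line. The ADH4 row equals that of RNA5-8SN1 in all 12 libraries with nothing exchanged. The HK2 row equals it in 6 of 6 HCC-LM3 libraries, and in 6 of 6 Huh-7 libraries with wild type and knockout exchanged. For this reason the glycolysis list is not summarised here. LDHA, the other lactate dehydrogenase subunit, had expected counts of 24, 12 and 15 in knockout HCC-LM3 and 0, 19 and 1.22 in knockout Huh-7, with a TPM 5.05 times what count and length give. TPI1, a glycolytic enzyme, also had few, at 34.11, 34.34 and 13.41 in knockout HCC-LM3 and 180.64, 175.41 and 145.35 in knockout Huh-7. Its TPM was 2.22 times what count and length give. The rows of LDHA and TPI1 passed the TPM check, so the rows named here may not be all that are irregular. What made these rows was not tested.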
